A study of Rattus norvegicus with 2 samples.

Results

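Collagens, laminins and integrins were followed in cultured rat neural stem cells on 2 arrays, 1 of cells exposed to sevoflurane and 1 of control cells. Members were the non-control probes of the scanner files whose RefSeq mRNA accession belongs to a rat gene with a Col, Lama, Lamb, Lamc, Itga or Itgb symbol. Itgam, Itgb2 and the genes of the Itgb binding proteins were left out. This gave 33 genes, each with 1 probe and 1 spot per array, of 13888 genes named through such accessions: 15 collagen, 5 laminin and 13 integrin genes. Itgbl1, counted with the integrins by its symbol, encodes an integrin beta-like protein and is no subunit of the receptors.

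The sevoflurane group was kept under 2.4% sevoflurane, an inhaled general anaesthetic, and the control group under 0% sevoflurane, in both cases for 6 h, after which the cells stood for 24 h in an ordinary incubator with 5% CO2. Both groups were third-passage cells (passage 3) from the hippocampus of Sprague-Dawley rats of postnatal day 3, grown without serum and with bFGF, and the labels do not say how many animals they came from. Sample titles name only 6 h, and the design text speaks of more than 1 experiment, so the time of harvest and any pooling of cultures are uncertain. Each group had 1 array, so the differences have no replicate check and no test and are described by their size.

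Collagens, laminins and integrins are the core of the contact between a cell and its matrix. Fibrillar collagens form the ropes of connective tissue, while type IV collagen and the alpha, beta and gamma chains of laminin build the sheet-like basement membranes of vessels, meninges and epithelia. Integrins, pairs of an alpha and a beta chain, bind these proteins from the cell surface and tie them to actin. Neural stem cells of the brain touch vessel basement membranes, and laminin is a usual coating in their culture.

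Col7a1, the collagen of the anchoring fibrils under epithelia, was 9.01-fold higher with sevoflurane, the highest fold among members measured on both arrays. Itgb6, an epithelial integrin chain, was 4.57-fold higher with 75th percentile scaling, but less than 2-fold after genes of like level were taken into account. Lama3, an alpha chain of the laminin of hemidesmosomes, was 4.18-fold higher. Itga3, an alpha chain of laminin receptors, was well above background on the sevoflurane array only, at least 11.9-fold higher there. Col1a2, Col3a1, Col4a1, Col8a1 and Itgb1, all with strong signals, stayed within 2-fold. Itgal, a leukocyte integrin, was 3.59-fold lower.

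The windows around the start of 4 of these genes are shown because Lama3, Col7a1 and Itga3 were at least 2-fold higher with sevoflurane, the last as a lower bound, and Col4a1 was within 2-fold in every scaling. Each runs from 250 bases before to 50 bases after the annotated start (RefSeq, build GRCr8), 5′ to 3′ on the gene's strand. Capitals mark TGANTCA, the letters bound by AP-1 factors, and GGGCGG, the GC box, each searched on both strands.
Lama3, chr18:3952517-3952816, strand +: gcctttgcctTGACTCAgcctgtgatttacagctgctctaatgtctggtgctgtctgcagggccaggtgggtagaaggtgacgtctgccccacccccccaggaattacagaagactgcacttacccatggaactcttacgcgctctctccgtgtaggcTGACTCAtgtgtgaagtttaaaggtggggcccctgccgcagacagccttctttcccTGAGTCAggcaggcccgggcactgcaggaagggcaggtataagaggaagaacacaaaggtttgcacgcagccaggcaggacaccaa
Col7a1, chr8:118483114-118483413, strand +: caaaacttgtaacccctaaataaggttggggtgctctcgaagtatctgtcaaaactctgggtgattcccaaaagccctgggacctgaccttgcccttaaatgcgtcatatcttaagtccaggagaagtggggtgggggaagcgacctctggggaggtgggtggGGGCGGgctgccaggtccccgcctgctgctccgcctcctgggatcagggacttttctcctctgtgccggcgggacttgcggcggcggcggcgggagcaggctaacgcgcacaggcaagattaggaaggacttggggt
Itga3, chr10:80518852-80519151, strand -: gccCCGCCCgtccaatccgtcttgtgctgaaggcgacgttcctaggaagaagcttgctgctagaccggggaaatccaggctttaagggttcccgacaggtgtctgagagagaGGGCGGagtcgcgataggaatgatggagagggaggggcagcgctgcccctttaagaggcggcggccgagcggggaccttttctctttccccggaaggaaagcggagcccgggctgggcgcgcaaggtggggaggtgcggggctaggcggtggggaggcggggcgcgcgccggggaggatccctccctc
Col4a1, chr16:84885347-84885646, strand +: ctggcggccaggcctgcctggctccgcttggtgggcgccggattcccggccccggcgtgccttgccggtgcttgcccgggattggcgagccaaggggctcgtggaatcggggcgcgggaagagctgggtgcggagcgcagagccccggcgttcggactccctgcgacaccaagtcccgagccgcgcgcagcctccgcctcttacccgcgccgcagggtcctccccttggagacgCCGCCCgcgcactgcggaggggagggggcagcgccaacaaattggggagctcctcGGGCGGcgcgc
Of 33 members, 24 had such a window in the table. TGANTCA occurred in 1 of these 24, Lama3, which held it at 3 places, beginning 240, 92 and 36 bases before the start. Over all 33469 windows 7.33% held it at least once and 5 windows (0.0149%) at 3 or more places. GGGCGG occurred in 13 of 24 member windows (54.2%) and in 33.1% of all windows, and the 2 motifs do not overlap. A match describes letters, and binding was not measured.

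Spot signals are processed intensities in scanner units, each with the error that the scanner software assigns to its single spot, and they are not scaled between arrays. The upper quartile over probes was 359.3 for sevoflurane and 692.2 for the control. The medians were 51.66 for sevoflurane and 46.58 for the control, and the lower quartiles 16.36 and 3.968. The arrays thus differed in spread, and no single factor brings them together at every level. Differences (sevoflurane minus control, log2) were taken after the 75th percentile of each array was subtracted, and they depend on that choice. Their errors combine both spot errors and leave out differences between cultures. A probe counted as measured when it was well above background on both arrays. That held for 26 of 33 members (13 collagens, 3 laminins, 10 integrins). Another 3 were well above background on the sevoflurane array only and 4 on neither. None was so on the control array only. Over all named mRNA probes the shares were 15.2% for sevoflurane only and 1.52% for the control only.

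**Figure D1:**
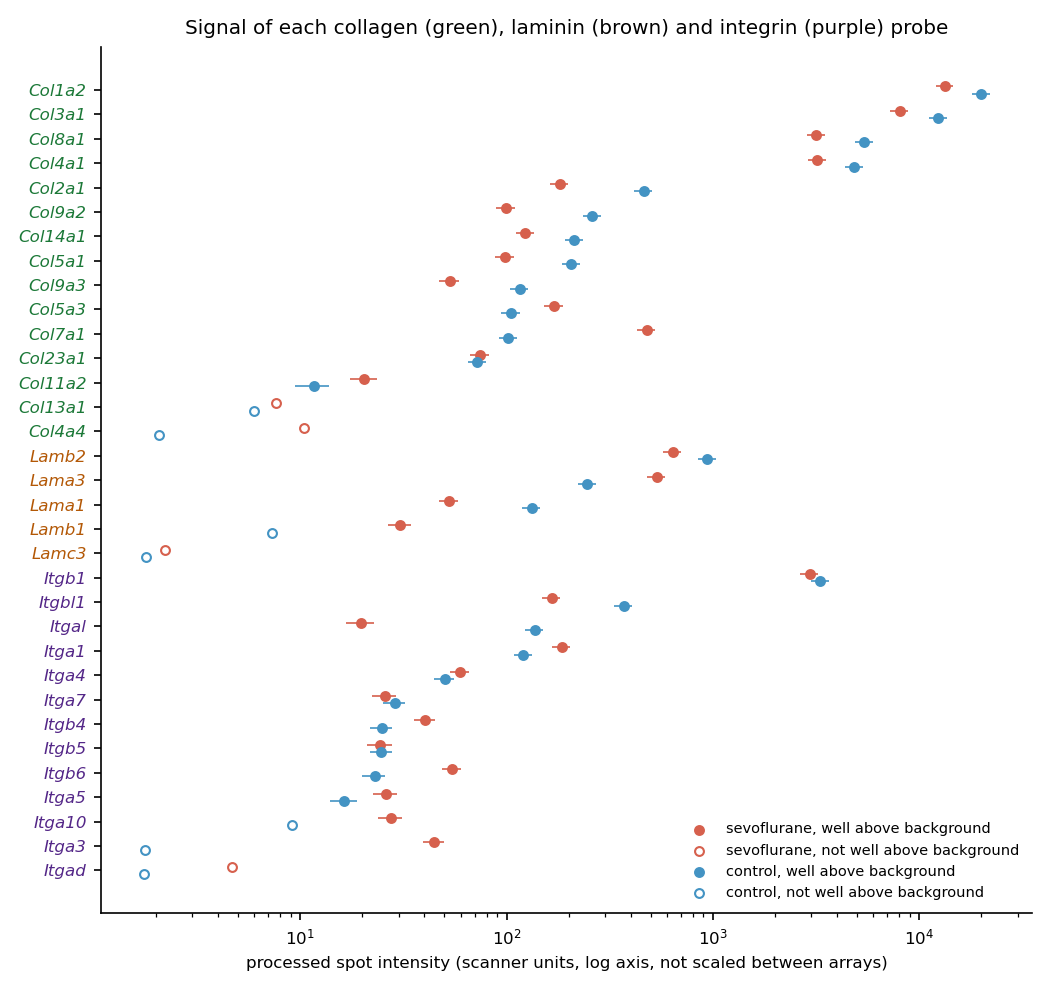
Processed intensity (log axis, scanner units, unscaled) of the 33 member probes, sevoflurane in red and control in blue, with the scanner error of spots well above background and open symbols for spots that were not. Col7a1 is brighter in sevoflurane cells (477.2) than in control cells (102.0), whereas Col1a2, Col3a1, Col4a1 and Col8a1 are dimmer in sevoflurane cells.

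Of the 26 measured members 9 were at least 2-fold higher with sevoflurane (34.6%), against 28.2% of all 10028 measured genes, and 1 was at least 2-fold lower, against 11.2%. The median difference was 0.58 over the members and 0.27 over all measured genes. Dim probes differed more than bright ones across the array: with probes split by level into 10 parts of like size, the median difference was 1.75 for the lowest levels and 0.18 for the highest. After that trend was subtracted (the intensity-dependent correction), 4 members were higher (15.4%), against 15.0% of all genes, and 2 were lower (7.69%), against 15.5%. After quantile normalization 4 were higher (15.4%), against 13.6%, and 3 lower (11.5%), against 19.6%. After the correction the members' share of higher genes was thus close to that of all genes, and their median was 0.02. Of the 9 higher members 8 had a control signal below 200, a limit chosen after the values were seen.

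**Figure D2:**
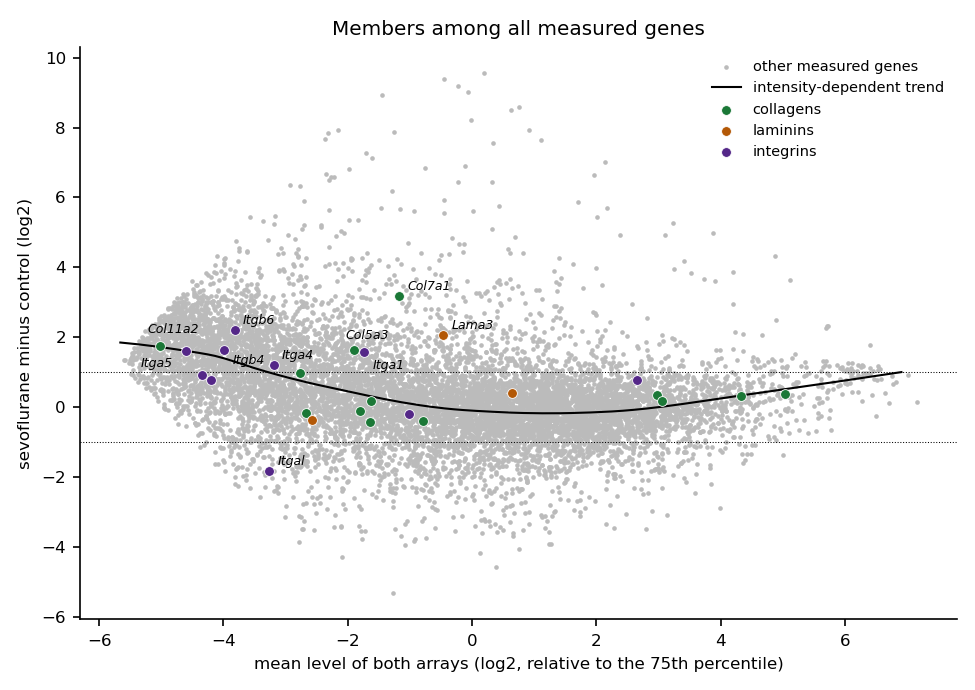
Difference (sevoflurane minus control, log2) against the mean level of both arrays (log2, relative to the 75th percentile) for all 10028 measured genes, with the 26 measured members coloured by family. The trend line lies near 1.75 for the dimmest genes, where Col11a2, Itga5 and Itgb4 sit close to it, while Col7a1, Lama3, Col5a3 and Itga1 lie above it and Itgal below it.

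The number of members past 2-fold changed with the scaling. Over 7 scalings (75th percentile, 2 forms of median scaling, quantile normalization, the intensity-dependent correction, normexp background correction and the authors' deposited table), Col7a1 was the 1 measured member at least 2-fold higher in all of them. Col5a3 and Itga1 were so in 6 of 7, and Lama3 in 5 of the 6 that gave a value. Within 2-fold in all 7 were 10 members: Col14a1, Col1a2, Col23a1, Col3a1, Col4a1, Col8a1, Itga7, Itgb1, Itgb5 and Lamb2. The median of all genes moved from scaling to scaling, from -0.83 with the median over all probes to 0.32 after normexp, and single values are to be read against that shift. Differences in the deposited table followed those after quantile normalization (r = 0.968), so these 2 scalings are not separate checks.

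**Figure D3:**
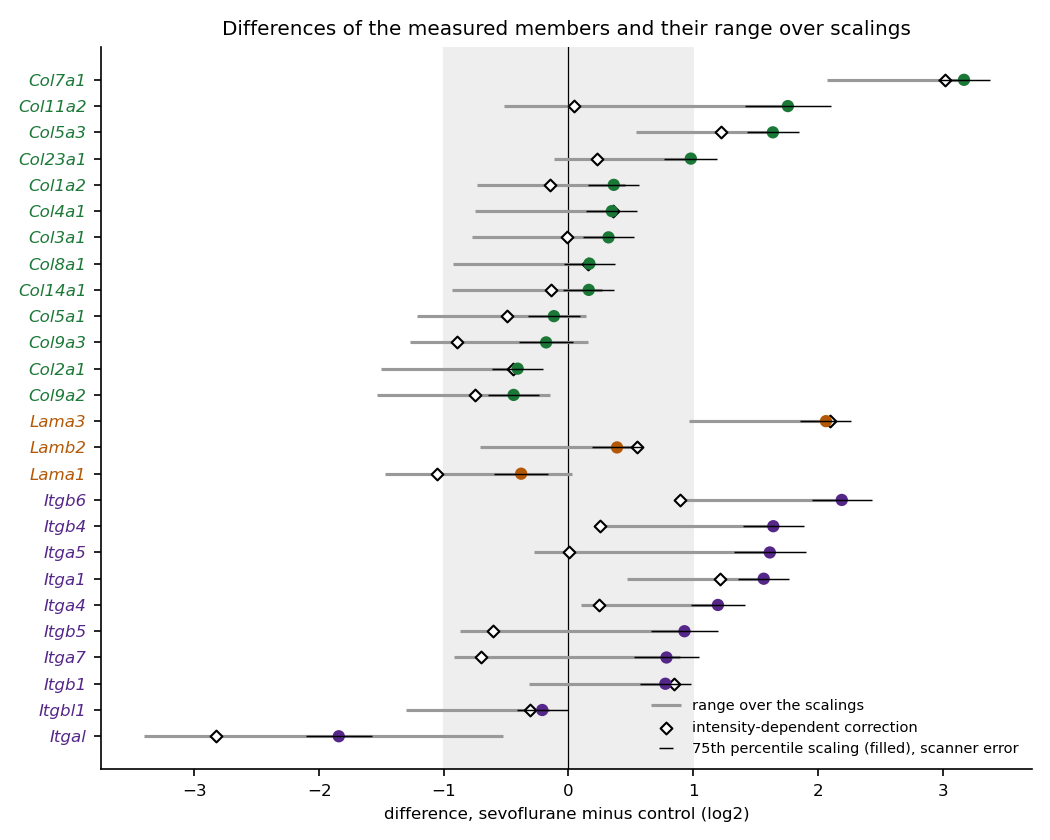
Difference (sevoflurane minus control, log2) of the 26 measured members, with 75th percentile scaling as filled circles with the scanner error, the intensity-dependent correction as diamonds and the range over 7 scalings as grey lines. Shading marks differences under 2-fold. The whole range of Col7a1, between 2.08 and 3.17, lies above it, and those of Itga5 and Col11a2 reach from beyond it to below 0.

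Among fibrillar collagens, the fibril-forming proteins of connective tissue, the bright genes were little apart. Col1a2, a chain of type I collagen, had signals of 13320 ± 1332 in sevoflurane cells and 19950 ± 1995 in control cells, a difference of 0.36 ± 0.20. Col3a1, the chain of type III collagen, had 8035 ± 803.5 in sevoflurane cells and 12390 ± 1239 in control cells, a difference of 0.32 ± 0.20. Both were slightly negative after the intensity-dependent correction, at -0.15 and -0.01. Col5a3, a chain of the type V collagen that regulates fibril growth, stood out with 169.7 ± 17.1 in sevoflurane cells and 105.0 ± 10.6 in control cells. Its difference was 1.64 ± 0.21, and 1.23 after the correction. Its partner gene Col5a1 did not share this, at 98.4 ± 10.1 in sevoflurane cells and 205.6 ± 20.6 in control cells, a difference of -0.12 ± 0.21. Col2a1, the cartilage collagen, had 180.8 ± 18.2 in sevoflurane cells and 462.0 ± 46.2 in control cells, a difference of -0.41 ± 0.20. Col11a2, which joins type II collagen in cartilage fibrils, had very dim spots of 20.4 ± 3.0 in sevoflurane cells and 11.6 ± 2.1 in control cells. Its difference was 1.76 ± 0.34, but 0.04 after the correction. Quantile normalization turned it to -0.52, and the authors' deposited table gave -0.51.

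Basement membrane, short-chain and anchoring fibril collagens included Col7a1, the gene with the highest fold among members measured on both arrays. Col4a1, the main basement membrane collagen, had 3200 ± 320.0 in sevoflurane cells and 4845 ± 484.5 in control cells, a difference of 0.35 ± 0.20. Col4a4, a chain of the kidney type IV network, was not well above background on either array. Col8a1, a short-chain collagen of vessel walls, had 3163 ± 316.3 in sevoflurane cells and 5426 ± 542.6 in control cells, a difference of 0.17 ± 0.20. Col7a1 had 477.2 ± 47.8 in sevoflurane cells and 102.0 ± 10.4 in control cells. Its difference was 3.17 ± 0.21 and remained 3.02 after the correction. The unscaled spot itself was 4.68 times as bright on the sevoflurane array. The unscaled spots of Col1a2, Col3a1, Col4a1 and Col8a1, in contrast, were dimmer there.

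Fibril-associated collagens, which decorate the surface of fibrils, were within 2-fold with 75th percentile scaling, though of these genes Col14a1 alone was so in all 7 scalings. Col9a2 had 99.2 ± 10.2 in sevoflurane cells and 259.3 ± 26.0 in control cells, a difference of -0.44 ± 0.21. Col9a3, its partner in type IX collagen, had 53.0 ± 5.8 in sevoflurane cells and 115.6 ± 11.7 in control cells, a difference of -0.18 ± 0.22. After the correction they were at -0.75 and -0.89, and with the median over all probes at -1.54 and -1.27. Col14a1 had 123.4 ± 12.6 in sevoflurane cells and 212.3 ± 21.3 in control cells, a difference of 0.16 ± 0.21. The transmembrane collagen gene Col23a1 had nearly equal unscaled spots, 74.0 ± 7.8 in sevoflurane cells and 72.2 ± 7.4 in control cells, which gave 0.98 ± 0.21 and 0.22 after the correction. Col13a1, of the same class, was not well above background on either array. By family, 3 of 13 measured collagens were at least 2-fold higher (23.1%, against 28.2% of all genes) and 0 lower, with a median of 0.32 (2 and 0, with a median of -0.01, after the correction).

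Of mesenchymal, pericyte and fibroblast markers, all 14 on the array were measured, and 9 were at least 2-fold higher (64.3%, against 28.2% of all genes) and 0 lower (8 and 0 after the correction). Dcn, Pdgfra, Lum, Postn and Vim did not pass 2-fold, at -0.01, 0.42, 0.62, 0.77 and 0.93. With the median over all probes 2 were higher and 1 lower, where 10.5% of all genes were higher and 43.5% lower. Their signals, summed over the measured markers as multiples of each array's upper quartile, came to 153.9 in sevoflurane cells and 75.75 in control cells. The unscaled sums, however, were 55300 in sevoflurane cells and 52440 in control cells. Vim added most, and without it the scaled sums were 80.29 in sevoflurane cells and 37.01 in control cells. Endothelial markers were dim: 5 of 7 on the array were measured, with Pecam1 well above background on neither array. Of the 5, 4 were higher (80.0%, against 28.2% of all genes). After the correction 1 was higher, where 15.0% of all genes were. Neural stem cell markers, 8 of 8 measured, summed to 27.71 in sevoflurane cells and 46.43 in control cells, so the labelled cell type had its markers on both arrays beside mesenchymal ones. Of 6 measured neuronal markers 0 were higher and 5 lower (83.3%, against 11.2% of all genes). They summed to 51.38 in sevoflurane cells and 129.3 in control cells. Of 7 measured astrocyte markers 2 were higher (28.6%, against 28.2%) and 3 lower (42.9%, against 11.2%), and 1 and 5 after the correction. Their sums were 2.97 in sevoflurane cells and 9.37 in control cells. Of 8 measured oligodendrocyte lineage markers 4 were higher and 2 lower (2 and 2 after the correction). Their sums of 13.22 in sevoflurane cells and 3.33 in control cells rested on Bcas1, and without it they were 2.05 in sevoflurane cells and 2.28 in control cells. Of 9 measured platelet and red cell markers 7 were higher (77.8%, against 28.2% of all genes) and 1 lower. After the correction 6 were higher and 1 lower. The red cell genes lay between 2.32 (Hbb) and 4.36 (Ahsp). Platelet genes were mixed: Pf4 was at 0.92, Gp1bb at -1.69 and the dim Gp9 at 1.89 (0.19 after the correction). The list summed to 143.6 in sevoflurane cells and 28.34 in control cells. Without the haemoglobin gene Hbb the sums were 26.7 in sevoflurane cells and 4.98 in control cells. The part of these cell types in the collagen, laminin and integrin values was not tested.

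Among the 3 measured laminin genes, Lama3 was past 2-fold and the others were not. Lama3 had 533.7 ± 53.4 in sevoflurane cells and 245.8 ± 24.6 in control cells. Its difference was 2.06 ± 0.20, and 2.10 after the correction, and its spot was brighter on the sevoflurane array also unscaled. Lama1, the alpha chain of early embryonic basement membranes, had 52.7 ± 5.8 in sevoflurane cells and 132.1 ± 13.3 in control cells. That was a difference of -0.38 ± 0.21, and -1.06 after the correction, and it was at least 2-fold lower in 4 of 7 scalings and above 0 in 1, normexp (0.03). Lamb2, a beta chain of vessel and synaptic basement membranes, had 638.1 ± 63.9 in sevoflurane cells and 938.8 ± 93.9 in control cells, a difference of 0.39 ± 0.20.

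Lamb1, the widespread beta chain, was well above background on the sevoflurane array only, at 30.4 ± 3.9, against 7.3 ± 1.9 in control cells. Folds of such genes were set against the higher of their own control signal and the lowest control signal well above background (7.22). For Lamb1 that was its own control spot. Its 7.99-fold was thus the ratio of both scaled spots, with an error of 0.42 (log2), and no strict lower bound. That fold shrank to 1.88-fold after quantile normalization. Lamc3, a gamma chain, was not well above background on either array.

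Of the collagen-binding alpha chains Itga1 and Itga10, Itga1 was measured on both arrays. Itga1, the alpha chain of a receptor for type IV collagen, had 185.1 ± 18.7 in sevoflurane cells and 120.5 ± 12.2 in control cells. Its difference was 1.57 ± 0.21, and 1.22 after the correction, and its spot was brighter on the sevoflurane array without any scaling. Itga10, which binds cartilage collagen, was well above background only on the sevoflurane array, at 27.5 ± 3.5, against 9.2 ± 2.2 in control cells. Its control spot was also brighter than the lowest control signal well above background. Its 5.77-fold was thus the ratio of both scaled spots, with an error of 0.39 (log2), and no strict lower bound. It was 1.37-fold after quantile normalization, and its difference was 0.82 after the correction, below 2-fold.

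Itga3 and Itga7 are alpha chains that bind laminin. Itga3 had the highest fold of the 3 members well above background on the sevoflurane array only, and its fold was a lower bound. It had 44.5 ± 5.0 in sevoflurane cells and a control spot of 1.8 ± 1.8, not well above background. The bound of 11.9-fold was 3.29-fold after quantile normalization and 5.55-fold with the median over all probes. Itga7, the muscle laminin receptor, had 25.8 ± 3.5 in sevoflurane cells and 28.8 ± 3.5 in control cells, a difference of 0.79 ± 0.26, but -0.70 after the correction.

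The fibronectin receptor chain Itga5 and the chain Itga4, which binds fibronectin and VCAM1, were dim. Itga5 had 26.0 ± 3.5 in sevoflurane cells and 16.4 ± 2.4 in control cells, a difference of 1.61 ± 0.29. It was 0.01 after the correction and -0.27 after quantile normalization, and the authors' deposited table gave -0.28. Itga4 had 59.6 ± 6.4 in sevoflurane cells and 50.01 ± 5.3 in control cells, a difference of 1.20 ± 0.22, and 0.24 after the correction. Both were thus within 2-fold of genes of like level.

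Beta chains complete the receptor and carry most of its link to the cytoskeleton. Itgb1, the partner of most matrix-binding alpha chains, had 2941 ± 294.1 in sevoflurane cells and 3306 ± 330.6 in control cells, a difference of 0.78 ± 0.20, and 0.85 after the correction. Itgb6, an epithelial chain whose receptor activates TGF-beta, had 54.3 ± 5.9 in sevoflurane cells and 22.9 ± 2.9 in control cells. Its difference of 2.19 ± 0.24 was 0.89 after the correction. Itgb4, the hemidesmosome chain, had 40.1 ± 4.6 in sevoflurane cells and 24.8 ± 3.0 in control cells, a difference of 1.64 ± 0.24, and 0.25 after the correction. Itgb5, a vitronectin receptor chain, had nearly equal dim spots of 24.4 ± 3.4 in sevoflurane cells and 24.7 ± 3.0 in control cells, a difference of 0.93 ± 0.27, and -0.61 after the correction. Itgbl1 had 165.7 ± 16.7 in sevoflurane cells and 369.3 ± 37.0 in control cells, a difference of -0.21 ± 0.21. By family, 5 of 10 measured integrin genes were at least 2-fold higher and 1 lower, where 28.2% of all genes were higher and 11.2% lower. The integrin median was 1.06. After the correction 1 integrin gene was higher and 1 lower, with a median of 0.13. Of all genes 15.0% were then higher and 15.5% lower. The integrin counts were also 1 and 1 after quantile normalization, where 13.6% of all genes were higher and 19.6% lower.

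Among leukocyte integrins, Itgal was the 1 member at least 2-fold lower. Itgal, the alpha chain of LFA-1 on white blood cells and microglia, had 19.8 ± 3.0 in sevoflurane cells and 136.7 ± 13.8 in control cells. Its difference was -1.84 ± 0.27, and -2.83 after the correction, and it was lower in all 7 scalings, though only by 0.52 after normexp. Itgad, another leukocyte alpha chain, was not well above background on either array. Itgb2, the obligate partner of Itgal and left out of the members, was well above background on the control array only, at 4.35 in sevoflurane cells and 67.5 in control cells, and Itgam on neither. Of 13 microglia and macrophage markers 10 were measured, 7 of them at least 2-fold lower and 1 higher. Summed over the measured markers as before, they came to 3.80 in sevoflurane cells and 18.35 in control cells. Fewer cells of a type and less RNA per cell cannot be told apart in such bulk RNA, and the part of these cells in the value of Itgal was not tested.

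Other genes of matrix and adhesion came from lists drawn up with earlier results of these arrays known. Of 24 measured collagen-processing genes, 11 were at least 2-fold higher and 0 lower, with a median of 0.98 (10 and 0, with a median of 0.92, after the correction). The genes with the highest absolute differences were the collagen cross-linking genes Loxl4, Loxl3 and Loxl2 at 2.25, 1.99 and 1.81, and the prolyl hydroxylase gene P4ha3 at 1.61. After the correction these were 1.04, 1.69, 1.99 and 0.94, so that P4ha3 no longer passed 2-fold. Loxl2 had signals of 1701 in sevoflurane cells and 933.3 in control cells, so its unscaled spot was brighter in sevoflurane cells. The collagen chaperone gene Serpinh1, named after its values were seen, had 13780 in sevoflurane cells and 10250 in control cells, a difference of 1.37. With the median over all probes the list had 1 higher and 1 lower gene and a median of -0.11. All genes then had a median of -0.83, with 10.5% higher and 43.5% lower. Of the collagen chains, 3 of 13 were higher, and the difference between both counts was not tested.

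Of 8 other basement membrane genes 4 were higher and 1 lower (2 and 1 after the correction). Smoc1 was at 3.43, Tinagl1 at 1.93 and Ntn4 at 1.67 (0.37 and -0.09 for the last pair after the correction), and Agrn, the proteoglycan of synapses and vessels, at -1.64. Of 14 other integrin ligands 7 were higher and 2 lower (6 and 2 after the correction). Spp1, or osteopontin, had 4557 in sevoflurane cells and 513.2 in control cells, a difference of 4.10. Icam2 was at 3.51 and the fibrinogen gene Fgb at 3.24, both dim in control cells (11.03 and 10.2), and Tnr, a brain matrix tenascin, at -3.39. Fn1, the fibronectin gene and also named after its values were seen, had 17480 in sevoflurane cells and 15600 in control cells, a difference of 1.11 (0.59 after the correction).

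Of 24 focal adhesion genes, which link integrins to actin, 8 were higher (33.3%, against 28.2% of all genes) and 1 lower, with a median of 0.66. The counts were also 8 and 1 after the correction, where Itgb1bp1 (1.11) passed and Parva did not. With the median over all probes they were 1 and 4, with a median difference of -0.44 (-0.83 over all genes). Lims2, Lims1 and Parva, of the complex with integrin-linked kinase, were at 2.35, 1.82 and 1.54, but at 1.22, 1.05 and 0.95 after the correction, so that Parva no longer passed 2-fold. Fermt3, the kindlin of blood cells, was at -2.58, with 19.96 in sevoflurane cells and 229.9 in control cells, beside the low Itgal and Itgb2. Of 20 genes of matrix proteases and their inhibitors 9 were higher (45.0%, against 28.2% of all genes) and 1 lower (5.00%, against 11.2%). The counts were 8 and 4 after the correction. With the median over all probes they were 6 and 6, where 10.5% of all genes were higher and 43.5% lower. The gelatinase gene Mmp9 was at 3.17, the metalloproteinase inhibitor gene Timp4 at 2.96 and the protease gene Adamts1 at 2.76. These 3 were at least 2-fold higher after the correction as well, at 2.05, 3.14 and 2.90.

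**Figure D4:**
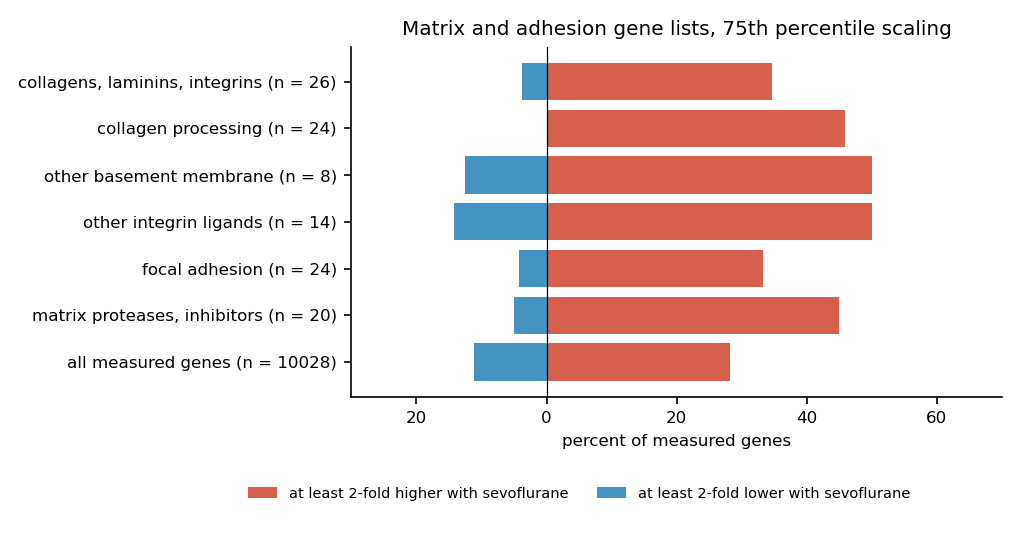
Percent of measured genes at least 2-fold higher (red, right) or lower (blue, left) with sevoflurane for the members, 5 other matrix and adhesion lists and all 10028 measured genes, 75th percentile scaling, n in brackets. The member bar (34.6% and 3.85%) is set against 28.2% and 11.2% of all genes, and 0 of 24 collagen-processing genes fall on the lower side, where the median over all probes puts 1.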

How the data were processed

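Total RNA was labelled by random priming and hybridised to 1-colour (Cy3) arrays, per the labels' protocols. The scanner files deposited by the authors hold spot intensity, corrected for background and detrended per the file headers, with no scaling between arrays. Version 11.0.1.1 of Agilent Feature Extraction was named in the submitters' processing notes. The authors' deposited table holds log2 values normalized by a method not given in the sources used here. Its columns had medians of 5.61 (sevoflurane) and 5.60 (control) and followed the log2 scanner signals (r = 0.991 and 0.993 over 24431 probes). The upper quartiles were 8.97 (sevoflurane) and 8.96 (control), and its differences followed those after quantile normalization (r = 0.968). Many probes share its lowest value, 1165 for sevoflurane and 6203 for the control, and its centring is unknown.

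Control spots and spots the scanner software marked as outliers (521 on the sevoflurane array, 580 on the control array, of 42136) were left out, and no spot was saturated. Log2 signals were averaged over spots of a probe and scaled to the 75th percentile over 24629 probes usable on both arrays. Accessions without versions were named through a RefSeq gene table (GRCr8), 14274 of 15321 mRNA probes. The array design is on rn4, so coordinates are given only for the RefSeq windows, and probe positions were not used here. A gene was represented by its brightest measured probe. Of 237 genes with 2 or more measured probes, 37 had probes 2-fold or more apart (median SD 0.11), an error that members with a single probe cannot show. The number of arrays limits the precision. The arrays had different scan days, and day and group cannot be told apart.

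Alternatives were median scaling (over all probes, or, added after the data were seen, over measured probes), quantile normalization and normexp (offset 50) with limma 3.58.1, and lowess of the difference on level (fraction 0.3, statsmodels 0.14.6). Normexp used median spot signals, as the files hold no mean signal. Marker lists were also recounted under each scaling and summed without the gene that adds most, both added after the data were seen. The steps were tested on simulated arrays that differed by an even shift, with no trend with level. That test cannot show how the steps handle the trend seen here. Members, lists and the naming rule were chosen with earlier results of these data known. The rule names measured members at least 2-fold apart, the 3 brightest of each family, bounds of at least 2-fold and up to 4 genes of each further list. A gene of these lists that the rule names is not reported here.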

Additional observations from a re-analysis of the deposited data

How the results depend on the processing

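No paired analysis was possible because the groups share only replicate number 1, with 1 array each. The count of measured members at least 2-fold higher, 9 with the 75th percentile, was also 9 with the median over measured probes, after normexp, with spots marked as outliers kept and with probes of a gene averaged. It was 2 with the median over all probes, 4 after quantile normalization, also 4 after correction for level, 3 of 24 in the deposited table, 1 of 9 in the brighter part of measured probes and 16 of 33 with all usable probes. The count at least 2-fold lower, 1 at first, was 7, 3, 2, 2, 0 and 1 in that order, and 0 after normexp. With the median over all probes 7.69% of members and 10.5% of all genes were higher, and 26.9% and 43.5% lower. The higher shares of members and all genes were 34.6% and 24.3% with the median over measured probes, and 34.6% and 23.1% after normexp. They were 12.5% and 13.6% in the deposited table, 11.1% and 11.6% in the brighter part, and 48.5% and 46.1% with all usable probes. Over all genes the share of higher among those past 2-fold was 71.5%, and 19.4% (median over all probes), 41.0% (quantile normalization), 49.0% (correction), 41.5% (deposited table) and 73.2% (normexp) otherwise. The median over the members, 0.58, was -0.51 with the median over all probes, 0.39 with that over measured probes, -0.18 after quantile normalization, 0.0245 after the correction, -0.18 in the deposited table, 0.35 in the brighter part and 0.98 with all usable probes. For collagens, at 0.32, the first 5 of these were -0.77, 0.13, -0.28, -0.0107 and -0.18. For laminins, at 0.39, they were -0.71, 0.20, 0.45, 0.55 and -0.39, with 0.23 after normexp, 1.23 in the brighter part and 1.26 with all usable probes. The value of -0.39 rests on 2 genes, Lama1 (-1.22) and Lamb2 (0.45), as Lama3 has no value in the deposited table. The brighter part also held 2 laminin genes, and all usable probes 5. For integrins, at 1.06, they were -0.0311, 0.87, -0.0371, 0.13 and -0.0421, with 0.28 in the brighter part (2 genes) and 1.57 with all usable probes (13 genes). Of 10 members past 2-fold, 8 kept their sign after quantile normalization and 7 of 9 in the deposited table. Col11a2 was at -0.52 and -0.51 there and Itga5 at -0.27 and -0.28, with control signals of 11.6 and 16.4, and the cause was not tested. All 10 kept their sign with the median over all probes, after the correction and after normexp. Fewer were still at least 2-fold apart: 3 with the median over all probes, 5 after the correction and 9 after normexp. The counts still 2-fold apart were 5 after quantile normalization and 4 of 9 in the deposited table. Without replicates, no setting measures the spread between cultures.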
